A study of Mus musculus with 8 samples.

Results

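Primitive endoderm regulators and endocytic receptors were followed here as 10 genes, chosen by name and matched by Ensembl identifier: the transcription factor genes Sox17, Gata6, Gata4, Foxq1 and Hnf4a, the receptor gene Pdgfra, the endocytosis genes Cubn, Lrp2 and Dab2, and the proteoglycan gene Srgn. All 10 were present in both gene tables, which together hold 18821 genes. Messenger RNA was sequenced from J1, a mouse embryonic stem (ES) cell line whose strain is labelled 12910la, in 8 libraries. KD Zscan4 cells, with the genotype Zscan4 knocked down, carried pSuper puro with a short hairpin RNA against Zscan4, and KD control cells are titled random control and labelled wild type. OE Zscan4 cells, with the genotype Zscan4c overexpressed, carried the Zscan4c coding region in pCMV-tag2, and OE control cells are labelled wild type. Each of these 4 groups had 2 libraries. All cells were transfected with 1000 ng of plasmid, grown in 15% serum with LIF at 10 ng/ml, selected for 7 days with puromycin (knockdown arm) or 10 days with G418 (overexpression arm), and picked as single clones. The labels do not say whether the libraries of a group came from separate clones or cultures, so each p-value reflects no more than how far these libraries spread, which may be technical.

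Primitive endoderm is the epithelium that separates from the epiblast in the blastocyst and gives rise to the visceral and parietal endoderm of the yolk sac. Cells in which FGF and ERK signalling is active switch on GATA6, GATA4, SOX17 and PDGFRA, while NANOG holds the others in the epiblast state. Visceral endoderm takes up maternal nutrients through cubilin and megalin, the products of Cubn and Lrp2, with DAB2 as the clathrin adaptor. ES cells resemble epiblast, and their cultures can hold a minority of cells with primitive endoderm genes switched on. In these bulk libraries fewer such cells and less RNA per cell cannot be told apart.

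The libraries held 17.4 M to 22.4 M reads in genes. As a check of the labels, the summed level of 9 Zscan4 family members was 97.4 and 136 normalised reads in KD Zscan4, against 3752 and 3336 in KD control, and 5878 and 5311 in OE Zscan4, against 360 and 389 in OE control. Both libraries of each Zscan4 group therefore stood on the labelled side of their controls. Reads of the introduced coding region and of the cells' own Zscan4c are counted on the same gene. The ES cell state was also checked: all 12 listed ES cell markers were present, with Pou5f1 between 19477 and 30763 normalised reads in all 8 libraries.

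Levels are the authors' normalised reads, and group means are given ± SD (n = 2). A fold change is the Zscan4 group's log2(value + 1) minus that of the control in the same arm, a scale on which changes of low genes come out too small. A gene was called when its limma p-value, adjusted by the Benjamini-Hochberg method over all genes of the table, lay under 0.05.

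The comparison of KD Zscan4 with KD control asked what moved in this group of genes when Zscan4 was targeted. Of the 10 genes, 9 fell and Hnf4a did not pass, while 35.7% of the 17938 genes of the table were called and 18.5% fell. Their median log2 fold change was -4.17, against 0.0078 over all genes. Cubn kept 1.82% of its KD control level, Srgn 2.56%, Foxq1 3.37%, Sox17 4.20%, Gata6 4.92%, Pdgfra 5.87%, Gata4 9.51%, Dab2 22.5% and Lrp2 55.6%. The values of the groups did not overlap for any of the 10, as for 67.8% of the table. Falls of 4 or more on the log2 scale were called for 20 genes of the whole table, or 0.111%, and 6 of those were Cubn, Srgn, Foxq1, Sox17, Gata6 and Pdgfra. The genes were picked for description with such results known, so the count of extreme falls is no independent evidence about them.

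**Figure D1:**
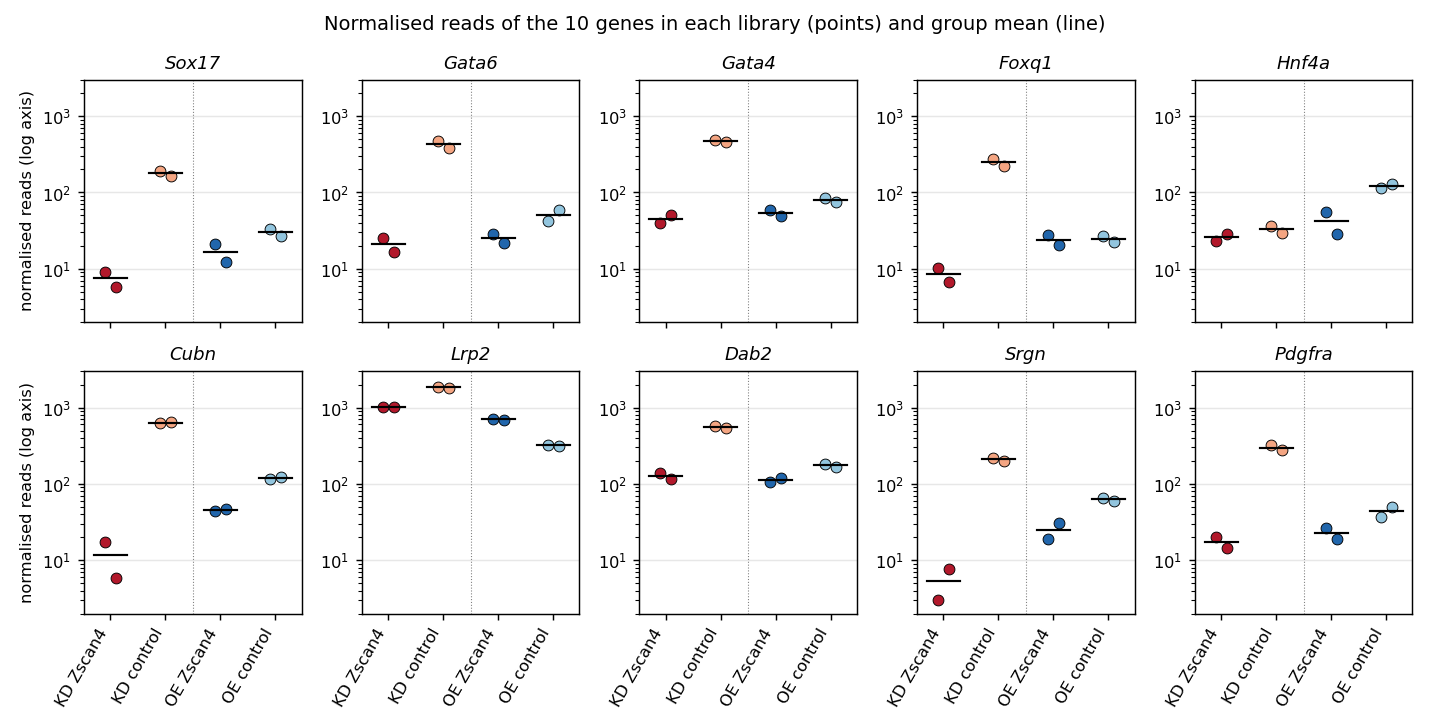
Normalised reads (log axis) of each of the 10 genes in the 8 libraries: points are libraries, lines are group means, and groups run from KD Zscan4 to OE control. KD control is the highest group for all genes but Hnf4a, whose highest group is OE control at 122 normalised reads.

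Sox17, an SRY-related factor gene of endoderm at 4490931 to 4497354 on chromosome 1 (mm10), had 9.13 and 5.82 normalised reads in KD Zscan4, against 193 and 164 in KD control. The groups were far apart, and 9 and 6 reads were all that stood behind the KD Zscan4 values. Its log2 fold change was -4.43 (SE 0.28, adjusted p = 3.1e-07). Genes of chromosome 1 stood at a median of 0.54 in this comparison while medians of the other chromosomes with a member of the group lay between -0.06 and 0.05, and relative to its chromosome Sox17 stood at -4.97. In OE Zscan4 it had 21.3 and 12.2, against 33.4 and 26.8 in OE control, values that did not overlap. That difference of -0.85 (SE 0.36, 95% interval -1.60 to -0.10) did not pass (adjusted p = 0.063). It passed without OE Zscan4 replicate 1 (-1.23, adjusted p = 0.028) and when all 8 libraries shared 1 estimate of the spread (adjusted p = 0.042).

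Gata6 and Gata4 encode the GATA factors of primitive endoderm, of which GATA6 acts earliest. Gata6, on chromosome 18, had 25.4 and 16.5 normalised reads in KD Zscan4, against 467 and 383 in KD control (log2 fold change -4.30, SE 0.21, adjusted p = 4.7e-08). Gata4, on chromosome 14 at 63198922 to 63271692, had 39.6 and 50.5 in KD Zscan4, against 489 and 458 in KD control (-3.38, SE 0.15, adjusted p = 2.0e-08). Both fell without overlap of the groups, Gata4 by less than Gata6. In the overexpression arm Gata6 had 28.7 and 21.6 in OE Zscan4, against 42.0 and 58.7 in OE control (-0.97, SE 0.29, adjusted p = 0.011). Gata4 had 58.5 and 49.8 in OE Zscan4, against 83.9 and 75.2 in OE control (-0.55, SE 0.21, adjusted p = 0.041). These falls were small beside those of the knockdown arm, and neither was called by DESeq2 on recovered reads (adjusted p = 0.083 for Gata6 and 0.21 for Gata4). The Gata6 call was also lost without OE control replicate 2 (-0.73) and without OE Zscan4 replicate 2 (-0.77), and that of Gata4 without OE control replicate 1 (-0.47), OE Zscan4 replicate 1 (-0.66) or OE Zscan4 replicate 2 (-0.44).

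Foxq1, a forkhead factor gene on chromosome 13 at 31556134 to 31560976, had 10.1 and 6.79 normalised reads in KD Zscan4, against 278 and 225 in KD control (-4.75, SE 0.25, adjusted p = 8.6e-08). It had 27.6 and 20.7 in OE Zscan4, against 26.7 and 22.7 in OE control. The OE groups overlapped, and Foxq1 was the single gene of the 10 of which this held in either arm. Its OE difference was -0.04 with a 95% interval of -0.73 to 0.65.

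Hnf4a encodes a nuclear receptor of visceral endoderm and liver. It had 23.3 and 28.1 normalised reads in KD Zscan4, against 36.7 and 29.2 in KD control, a difference of -0.34 (95% interval -0.97 to 0.28) that did not pass (adjusted p = 0.39). In the overexpression arm it had 55.3 and 28.2 in OE Zscan4, against 114 and 129 in OE control, and fell by 1.59 on the log2 scale (SE 0.26, adjusted p = 7.8e-05). Its level was thus highest in OE control, where the other 9 genes were not. The libraries of OE Zscan4 differed 1.96-fold from each other, the widest gap within a group for any of the 10 genes in that arm.

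Pdgfra encodes the PDGF receptor alpha chain, an early surface marker of primitive endoderm that mesenchymal cells also carry. On chromosome 5 at 75152292 to 75198215, it had 20.3 and 14.6 normalised reads in KD Zscan4, against 320 and 274 in KD control (-4.03, SE 0.21, adjusted p = 7.2e-08). It had 26.6 and 18.8 in OE Zscan4, against 37.2 and 50.5 in OE control (-0.92, SE 0.30, adjusted p = 0.020). The groups did not overlap in either arm, and lay much further apart in the knockdown. The OE call was lost with DESeq2 (adjusted p = 0.13), without OE control replicate 2 (-0.71) and without OE Zscan4 replicate 2 (-0.68).

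Cubn encodes cubilin, a large peripheral receptor that binds vitamin B12 with intrinsic factor, albumin and other ligands, and lies on chromosome 2 at 13276338 to 13491813. It had 17.3 and 5.82 normalised reads in KD Zscan4, against 627 and 642 in KD control. The KD Zscan4 libraries rested on 17 and 6 reads and differed 2.96-fold from each other, a gap that is small beside the 55.0-fold difference of the group means. Its log2 fold change of -5.83 (SE 0.34, adjusted p = 1.7e-07) was the third lowest of all 17938 genes. It was -6.54 without KD Zscan4 replicate 1 and -5.12 without KD Zscan4 replicate 2, so the size of the fall and the share kept depend on the library. In OE Zscan4 Cubn had 44.7 and 47.0, against 114 and 123 in OE control, and fell as well (-1.35, SE 0.19, adjusted p = 2.4e-05).

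Lrp2 encodes megalin, a member of the LDL receptor family that carries cubilin into the cell, and lies on the same chromosome at 69424340 to 69586065. Lrp2 had 1027 and 1014 normalised reads in KD Zscan4, against 1876 and 1797 in KD control (-0.85, SE 0.06, adjusted p = 8.3e-07). It had 714 and 686 in OE Zscan4, against 324 and 315 in OE control (1.13, SE 0.09, adjusted p = 3.8e-08). Lrp2 was higher in the group with more Zscan4 in each arm, and it was the one gene of the 10 that rose in OE Zscan4. Beside Cubn, its partner in uptake, it fell far less in the knockdown and moved the other way in the overexpression. Lrp2 made up 78.3% and 80.1% of the summed reads of the 10 genes in KD Zscan4, against 36.9% and 38.1% in KD control, and 64.9% and 66.4% in OE Zscan4, against 31.7% and 30.7% in OE control.

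Dab2 encodes the clathrin adaptor that binds the cytoplasmic tails of megalin and its relatives, and lies on chromosome 15 at 6299788 to 6440712. It had 137 and 116 normalised reads in KD Zscan4, against 579 and 545 in KD control (-2.14, SE 0.11, adjusted p = 7.7e-08). It had 104 and 118 in OE Zscan4, against 181 and 168 in OE control (-0.65, SE 0.15, adjusted p = 0.0019). Dab2 therefore fell in both arms, by less than Cubn in each.

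The stretches of 250 bases before the transcription start of Cubn, Lrp2, Dab2 and Hnf4a are shown because these genes differed in pattern: Cubn had the largest fall, Lrp2 the opposite signs, Dab2 a moderate fall in both arms and Hnf4a no call in the knockdown. They are RefSeq sequences of GRCm38.p6, the assembly of mm10, and run 5′ to 3′ on the gene's strand. The windows are set from RefSeq starts, while the gene coordinates given above are those of GENCODE M21. The 3′ ends of the Lrp2, Hnf4a and Dab2 windows therefore reach into the GENCODE gene. That of Cubn, at 13491877, stops short of the GENCODE gene, which begins at 13491813 on this strand. They lie at chr2:13491877-13492126 (minus strand) for Cubn, chr2:69586030-69586279 (minus strand) for Lrp2, chr15:6299539-6299788 (plus strand, the first of 2 starts) for Dab2 and chr2:163506607-163506856 (plus strand, the first of 2 starts) for Hnf4a. Capitals mark AGATAA or TGATAA on either strand, the letters that GATA factors prefer.
Cubn: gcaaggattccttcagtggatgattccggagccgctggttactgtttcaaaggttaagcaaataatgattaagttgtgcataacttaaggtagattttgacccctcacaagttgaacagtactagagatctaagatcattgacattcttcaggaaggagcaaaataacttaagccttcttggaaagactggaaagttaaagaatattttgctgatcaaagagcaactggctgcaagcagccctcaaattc
Lrp2: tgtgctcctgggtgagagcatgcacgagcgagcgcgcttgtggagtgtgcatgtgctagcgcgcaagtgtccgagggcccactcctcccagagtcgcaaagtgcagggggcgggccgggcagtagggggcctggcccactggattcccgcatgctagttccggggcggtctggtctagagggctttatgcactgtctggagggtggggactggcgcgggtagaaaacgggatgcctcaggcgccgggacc
Dab2: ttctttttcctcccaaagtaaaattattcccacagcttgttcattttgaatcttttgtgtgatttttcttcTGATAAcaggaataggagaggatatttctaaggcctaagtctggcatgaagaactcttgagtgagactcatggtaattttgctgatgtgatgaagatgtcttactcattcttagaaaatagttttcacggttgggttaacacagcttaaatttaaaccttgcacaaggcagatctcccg
Hnf4a: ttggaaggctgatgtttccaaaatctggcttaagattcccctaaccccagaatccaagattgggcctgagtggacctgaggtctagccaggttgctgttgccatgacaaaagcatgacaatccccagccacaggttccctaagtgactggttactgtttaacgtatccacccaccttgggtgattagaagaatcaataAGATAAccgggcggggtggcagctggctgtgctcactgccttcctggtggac

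RefSeq promoters were at hand for 6 of the 10 genes, in 9 windows counting second starts. AGATAA or TGATAA was found in 2 of these 9 windows, those printed for Dab2 and Hnf4a, and in 16.6% of all 32851 windows of the same length. ACAAT, a core that SOX factors bind, was also found in 2 windows, one of Hnf4a and one of Srgn, against 27.7% of all windows. GTAAACA, a forkhead motif, and CAAAGTCCA, an HNF4 motif, were in none of the 9, against 3.17% and 0.384% of all. Both strands were searched, and the motifs do not overlap in the matches found. The windows differed in base composition, with 66.4% G and C before Lrp2, 51.2% before Hnf4a, 39.6% before Cubn and 36.8% before the first start of Dab2.

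Srgn encodes serglycin, the core protein of a proteoglycan packed in secretory granules and best known from blood cells, and lies on chromosome 10 at 62493833 to 62527451. It had 3.04 and 7.77 normalised reads in KD Zscan4, against 220 and 202 in KD control. Only 3 and 8 reads stood behind the KD Zscan4 values, and its log2 fold change was -5.15 (SE 0.34, adjusted p = 5.1e-07). Srgn had 19.1 and 31.0 in OE Zscan4, against 65.8 and 59.7 in OE control (-1.33, SE 0.28, adjusted p = 9.5e-04). With a pseudocount of 5 the knockdown value was -4.41. Srgn fell without overlap in both arms.

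**Figure D2:**
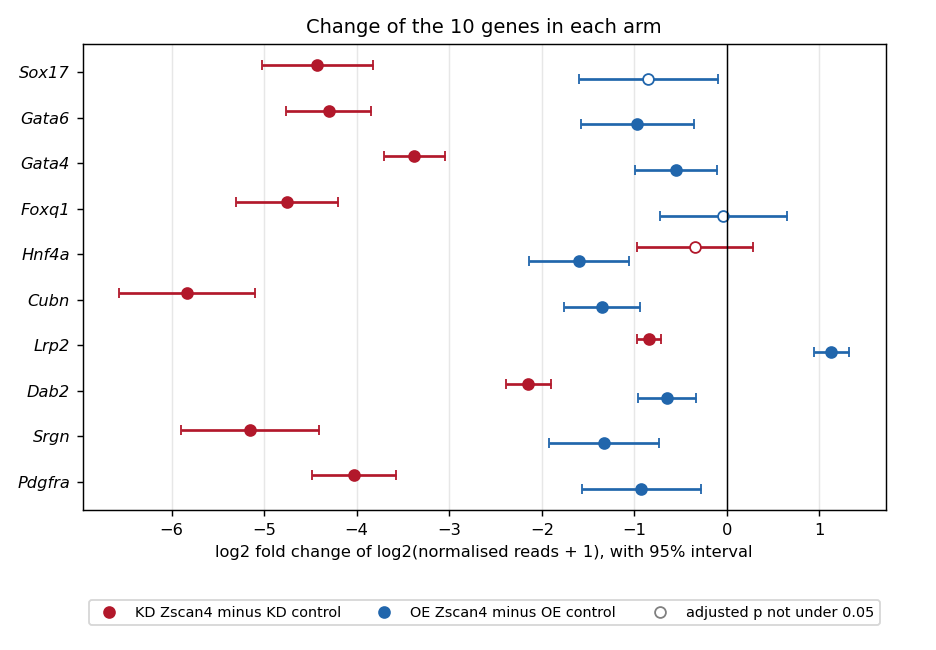
Log2 fold change of log2(normalised reads + 1) of each gene with its 95% interval from limma, KD Zscan4 minus KD control in red and OE Zscan4 minus OE control in blue; open points did not pass. In the knockdown 8 genes lie between -5.83 and -2.14 with Lrp2 at -0.85 and Hnf4a at -0.34, and in the overexpression Lrp2 at 1.13 is the one point to the right of 0.

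The comparison of OE Zscan4 with OE control asked whether added Zscan4c moved the same genes. Of the 10 genes, 7 fell and Lrp2 rose, while 44.3% of the 18292 genes of the table were called, 22.1% lower and 22.3% higher. Groups did not overlap for 9 of the 10, and for 71.2% of the table. The median log2 fold change was -0.89, against -0.0022 over all genes. No gene of the 10 fell by 2 or more, and 1.28% of the table were called with such a fall. DESeq2 on recovered reads called 4 falls and 1 rise, and the same numbers were called without OE Zscan4 replicate 2. Thus 6 genes, Gata6, Gata4, Cubn, Dab2, Srgn and Pdgfra, were called lower both where Zscan4 was targeted and where it was added. With DESeq2 the overexpression calls of Gata6, Gata4 and Pdgfra were lost, and those of Cubn, Dab2 and Srgn were kept. The share of all genes called lower in both arms was not counted. The 2 comparisons share no library. The 2 controls themselves stood at different levels. In the overexpression, genes of chromosome 11, where none of the 10 lies, stood at a median of -0.35. Values given below for genes there, such as Krt19, Pecam1 and Col1a1, were not taken relative to it.

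The order of the 4 groups was the same for most of the genes. KD control lay highest for 9 of them, between 3.22 and 10.2 times the OE control level, and Hnf4a was at 0.271 times. The arms were normalised separately by the authors, and no test was made across them. When the recovered reads of all 8 libraries were scaled together with TMM, the ratios lay between 3.23 and 10.2, with Hnf4a at 0.272. On this joint scale OE Zscan4 had 5.91% of the KD control level of Gata6, 7.21% of Cubn, 7.63% of Pdgfra, 9.38% of Sox17, 9.61% of Foxq1, 11.4% of Gata4, 11.9% of Srgn, 19.8% of Dab2 and 38.1% of Lrp2. OE Zscan4 and KD control, the groups with high Zscan4, thus stood far apart for 9 of these genes. Some neighbouring groups were not apart: the deposited values of KD Zscan4 and OE Zscan4 overlapped for Gata6, Gata4, Dab2 and Pdgfra, those of OE Zscan4 and OE control for Foxq1, and those of OE Zscan4 and KD control for Hnf4a. Sox17, Cubn and Srgn were lowest in KD Zscan4, with OE Zscan4 and then OE control above it and no overlap. For Lrp2 the order was KD control, KD Zscan4, OE Zscan4 and OE control, with no overlap between neighbours.

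Levels of different genes can be set side by side per length of exon. Per kb, KD Zscan4 had 61.1 ± 0.54 normalised reads of Lrp2, then 17.3 ± 1.98 of Dab2 and 11.5 ± 1.97 of Gata4. The other 7 genes were at 0.77 to 5.33 per kb in KD Zscan4, with Hnf4a the highest of these and Cubn the lowest. Per kb, KD control had 121 ± 5.57 normalised reads of Gata4, 110.0 ± 3.36 of Lrp2 and 96.2 ± 5.85 of Srgn, and at the low end 29.6 ± 3.22 of Pdgfra and 6.83 ± 1.10 of Hnf4a. In OE Zscan4 Lrp2 was again highest at 41.9 ± 1.21 per kb, and in OE control Srgn led with 28.6 ± 1.95 per kb, with Hnf4a at 25.2 ± 2.10.

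The effects in the 2 arms were compared as the OE effect minus the KD effect over the 17409 genes of both tables. It passed for all 10 genes, where 44.7% of genes passed. It was positive for 9, against 22.9% of genes that passed with a positive sign, and negative for Hnf4a, against 21.8% of genes. For Lrp2 the difference was 1.97 (SE 0.10, adjusted p = 2.6e-10), the gene whose effects had opposite signs. For Hnf4a it was -1.25 (SE 0.41, adjusted p = 0.020), a call lost with DESeq2 (adjusted p = 0.073), without KD control replicate 2 (-1.09), KD Zscan4 replicate 2 (-1.12), OE control replicate 2 (-1.17) or OE Zscan4 replicate 2 (-0.78).

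Other genes of extraembryonic endoderm were counted by lists. In the list of visceral and other extraembryonic endoderm genes, 13 of 20 measured fell in KD Zscan4 and Rbp4 rose, against 18.5% and 17.2% of all genes. The median was -1.002. Foxa2, a forkhead factor gene of endoderm, had 0 and 3.88 normalised reads in KD Zscan4, against 44.8 and 31.4 in KD control. Habp2, a plasma protease gene, had 0 and 3.88, against 18.8 and 30.3. Dkk1, which encodes a Wnt inhibitor, was at -3.86 (SE 0.43, adjusted p = 2.7e-05) and Sox7, a relative of Sox17, at -3.04 (SE 0.34, adjusted p = 2.8e-05). Rbp4, the retinol carrier gene, went against the list with 118 ± 7.93 in KD Zscan4 and 17.4 ± 7.10 in KD control. Ihh, Apoa1, Stra6, Trf, Foxa1 and Cited1 did not pass (-0.85 to -0.02). Afp, Ttr, Cer1 and Lhx1 were listed but had no values in either arm. Foxa2, Dkk1, Habp2 and Bmp2 had none in the overexpression arm. In that arm 5 of 16 fell and 4 rose, shares near the 22.1% and 22.3% of all genes, with a median of -0.21. Spink1 (2.44), Apob (1.47) and Foxa1 (1.23) were among the rises and Stra6 (-1.42), a retinol receptor gene, among the falls. Sox7 stood at 1.01 there and did not pass (adjusted p = 0.058).

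Genes of parietal endoderm and of the basement membrane that it lays down moved in part with the 10. In KD Zscan4 12 of 17 measured fell and Plat rose, against 18.5% and 17.2% of all genes, with a median of -0.70. The collagen IV chain genes Col4a2 and Col4a1 were at -2.71 (SE 0.06, adjusted p = 1.4e-10) and -2.43 (SE 0.07, adjusted p = 5.7e-10), the laminin gene Lama1 at -2.08 and the hormone receptor gene Pth1r at -2.10. Nid1, Nid2, Krt18 and Krt19 did not pass (-0.02 to 0.09). In OE Zscan4 9 of 17 fell and Lamc1 (0.32) rose, against 22.1% and 22.3% of all genes, with a median of -0.36. The keratin gene Krt19 was lowest at -2.75, followed by Lama1 (-0.76), Plat (-0.72) and Krt18 (-0.63).

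**Figure D3:**
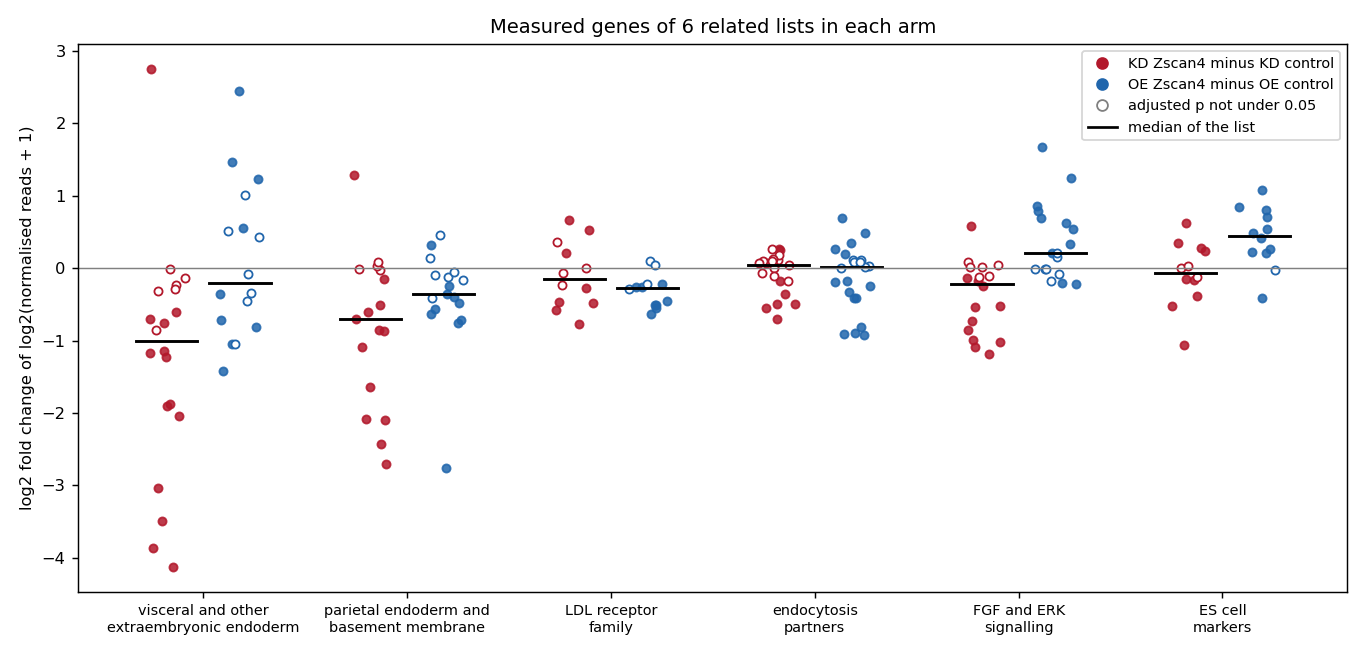
Log2 fold change of log2(normalised reads + 1) of the measured genes of 6 lists, KD Zscan4 minus KD control in red and OE Zscan4 minus OE control in blue; open points did not pass and bars are list medians. The KD medians of the endoderm lists are -1.002 and -0.70, and the FGF and ERK list has medians of -0.21 in the knockdown and 0.21 in the overexpression.

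Among FGF and ERK signalling genes, the pathway that drives primitive endoderm fate, 11 of 18 fell in KD Zscan4 and Egr1 rose (0.58), against 18.5% and 17.2% of all genes, with a median of -0.21. The feedback inhibitor genes Dusp6 (-1.18), Spry2 (-1.08), Spry4 (-1.02) and Dusp4 (-0.99) were lowest. In OE Zscan4 9 of 18 rose and Grb2 (-0.21) and Map2k1 (-0.22) fell, against 22.3% and 22.1% of all genes, with a median of 0.21. Grb2 lies on chromosome 11, whose genes stood at a median of -0.35 in this arm. Spry4 was at 1.68, Dusp6 at 1.25, Spry2 at 0.86 and Egr1 at 0.79. Spry4 had 2795 ± 50.9 in OE Zscan4 and 875 ± 84.8 in OE control. Dusp6, Spry2 and Spry4, as Lrp2, were thus lower in KD Zscan4 and higher in OE Zscan4 than in their controls. The receptor gene Fgfr2, named after its values were seen, showed the same signs (-0.86 and 0.54), and Fgf4, the ligand gene, was at -0.14 and -0.02, of which only the first passed. Of the PDGF ligand genes and Pdgfrb, Pdgfa fell (-0.51) and Pdgfrb rose (0.79) in KD Zscan4 among 4 measured, with a median of 0.25. In OE Zscan4 Pdgfrb (-1.98), Pdgfb (-1.21) and Pdgfa (-0.31) fell and Pdgfc (0.72) rose among 5, with a median of -1.12.

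The uptake machinery that serves megalin and cubilin had medians near those of all genes. Of 22 partner genes, 6 fell and 2 rose in KD Zscan4 (median 0.04), against 18.5% and 17.2% of all genes. In OE Zscan4 10 fell and 5 rose (median 0.01), against 22.1% and 22.3% of all genes. Among these falls, Ap2b1 (-0.40), Rab5c (-0.25) and Cltc (-0.18) lie on chromosome 11, whose genes stood at a median of -0.35 in this arm. Amn, which encodes the membrane anchor of cubilin, fell in KD Zscan4 (-0.70, SE 0.21, adjusted p = 0.020) and in OE Zscan4 (-0.81, SE 0.22, adjusted p = 0.0070). Lrpap1, the chaperone gene of megalin, had 1388 ± 58.4 in KD Zscan4 and 2039 ± 10.0 in KD control (-0.56), and 1018 ± 33.9 in OE Zscan4 and 630 ± 51.1 in OE control (0.69, adjusted p = 3.9e-06). Amn thus had the signs of Cubn in the 2 arms and Lrpap1 those of Lrp2, an observation made after the values were seen. Cltb, a clathrin light chain gene, fell in KD Zscan4 (-0.50), and Tfrc (-0.92) and Myo6 (-0.91) fell in OE Zscan4. The LDL receptor family had 12 measured genes beside Lrp2. Of these, 5 fell and 3 rose in KD Zscan4 (median -0.15), against 18.5% and 17.2% of all genes. Lrp3 (-0.76) and Lrp5 (-0.58) were lowest and Vldlr (0.67) highest. In OE Zscan4 8 of 12 fell and none rose (median -0.28), against 22.1% and 22.3% of all genes. Lrp1 (-0.63), Lrp12 (-0.55), Lrp4 (-0.51) and Sorl1 (-0.50) were among the falls.

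Relatives of the transcription factors were mixed. Over all genes, 18.5% fell and 17.2% rose in KD Zscan4, and 22.1% fell and 22.3% rose in OE Zscan4. Among GATA and SOXF genes and GATA cofactors, 3 of 6 fell in KD Zscan4 (Sox7, Sox18 at -2.59 and Gata2 at -1.07). Gata1 (1.05) and Zfpm1 rose there, and the median was -0.45. In OE Zscan4 Gata1 (-1.53) and Zfpm1 (-0.72) fell among 5, and the median was 0.11. Genes of proteoglycan synthesis and partners of serglycin rose in 5 and fell in 5 of 15 cases in KD Zscan4 (median 0.0079), with Gpc3 at 0.87, Chst11 at 0.63, Gpc4 at -0.62 and B3galt6 at -0.82. In OE Zscan4 2 rose and 5 fell (median -0.19), with Gpc4 at 1.15, B3galt6 at 0.99, Chst11 at -1.09 and Sdc4 at -1.25.

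Markers of other cell types that could share these genes were measured beside them. Their counts stand against 18.5% of all genes falling and 17.2% rising in KD Zscan4. In OE Zscan4 these shares were 22.1% and 22.3%. In the blood and endothelial list, the usual home of serglycin, 7 of 12 genes were measured in the knockdown table, 2 fell and 1 rose, and the summed level was 1673 and 1729 in KD Zscan4 and 960 to 1040 in KD control, mostly Pecam1. Runx1 fell (-1.95) and Tal1 (-0.76) fell. Over 8 measured genes in the overexpression, Tal1 (1.17) rose and Pecam1 (-0.90) fell, and the sum was 1978 to 2081 in OE Zscan4 and 3538 to 3793 in OE control. Fibroblast and mesenchyme markers, which share Pdgfra, summed to 419 and 472 in KD Zscan4 and 410 and 423 in KD control over 7 of 10 genes, with Thy1 (0.91) and Pdgfrb higher and Twist1 (-2.85) lower. They summed to 354 and 380 in OE Zscan4 and 855 and 856 in OE control over 6 genes, with Pdgfrb, Col1a1 (-1.14) and Thy1 (-0.98) lower. Mesoderm markers summed to 90.3 and 113 in KD Zscan4 and 194 and 244 in KD control over 8 of 10 genes, and Meis1 (-2.69) fell. They summed to 83.6 and 98.9 in OE Zscan4 and 130 and 133 in OE control, and Mesp1 (-2.52) and Tbx6 (-1.31) fell. No measured gene of these 3 lists was at 0 in any library. The part of such cells in the results for Srgn and Pdgfra was not tested.

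Definitive endoderm markers, which share Sox17 and Gata4, fell in 3 of 8 cases in KD Zscan4, against 18.5% of all genes. These were Foxa2, Eomes (-0.67) and Hhex (-0.61). The sums were 744 and 796 in KD Zscan4 and 859 and 906 in KD control, and the median was -0.46. In OE Zscan4 Foxa1 and Fgf17 (0.48) rose among 7, against 22.3% of all genes, and the median was -0.11. The sums were 888 and 955 in OE Zscan4 and 771 and 781 in OE control. They were mostly Fgf17, with 603 ± 16.7 in OE Zscan4 and 430 ± 5.97 in OE control. Trophectoderm markers gave 1 rise, Tfap2c (0.76), and 3 falls, Gcm1 (-1.46), Cdx2 (-1.13) and Eomes, among 8 in KD Zscan4. Of all genes, 17.2% rose and 18.5% fell there. The sums were 1865 to 1965 in KD Zscan4 and 1272 to 1321 in KD control, and the median was 0.09. Tfap2c made up most of these sums, with 1649 ± 65.9 in KD Zscan4 and 976 ± 23.2 in KD control. In OE Zscan4 Tfap2a (1.16) rose and Elf5 (-1.76), Krt7 (-1.60) and Ascl2 (-0.91) fell among 7, against 22.3% and 22.1% of all genes. The sums, again mostly Tfap2c, were 1759 to 1804 in OE Zscan4 and 1973 to 2120 in OE control. The median was -0.34. ES cell markers went both ways in KD Zscan4, 5 of 12 falling and 4 rising against 18.5% and 17.2% of all genes (median -0.06), with Lin28a at -1.06, Utf1 at -0.52, Sall4 at -0.39 and Tfcp2l1 at 0.62. Tfcp2l1 lies on chromosome 1, whose genes stood at a median of 0.54 in the knockdown. In OE Zscan4 10 of 12 rose against 22.3% of all genes, Zfp42 (1.08), Klf4 (0.84), Sall4 (0.80) and Utf1 (0.71) most, and Tfcp2l1 (-0.41) fell (median 0.45). Nanog, not among the largest changes of this list, rose in both Zscan4 groups (0.35 and 0.48). Zfp42 (0.27 and 1.08) and Sox2 (0.24 and 0.22) were also called higher in both.

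Among 14735 other genes with a mean of at least 20, the 8 whose values over the 8 libraries were most like the mean profile of the 10 were Agpat3, Capn2, Col4a1, Gnpda1, Col4a2, Prr13, Phf2 and Sh3d19. Likeness was measured by Pearson's r to that profile after centring each arm on its own mean and scaling to unit SD, and it lay between 0.993 and 0.999. The libraries fall into 4 groups, so r mainly reads the group means and says nothing about size. Agpat3, an acyltransferase gene, was at -1.09 in KD Zscan4 and -0.19 in OE Zscan4, where Col4a2 was at -2.71 and -0.36. Of the 10 genes, 8 had an r of 0.969 to 0.996 to their own mean profile, to which they contribute, and Lrp2 (0.44) and Hnf4a (0.38) did not share it.

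**Figure D4:**
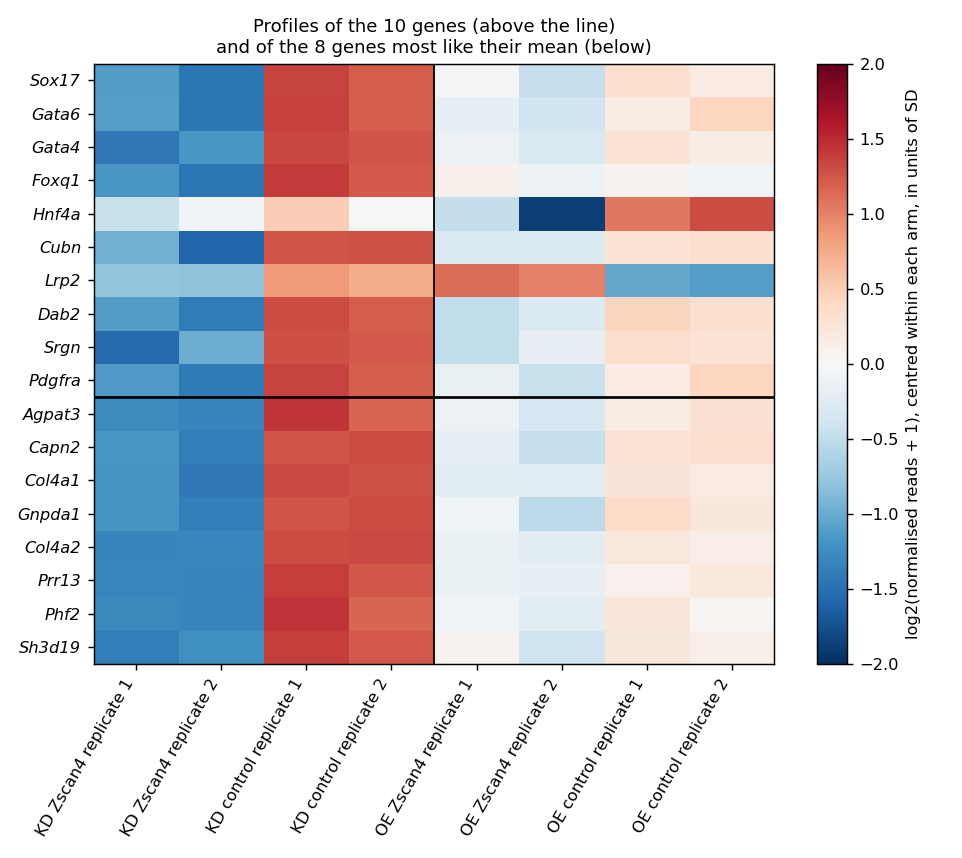
Values of log2(normalised reads + 1), centred within each arm and in units of SD over the 8 libraries, for the 10 genes (above the line) and the 8 genes most like their mean (below); columns are libraries. KD Zscan4 averages below KD control in all lines, Lrp2 is high in OE Zscan4 and Hnf4a has its widest contrast between OE Zscan4 and OE control; these 2 have r of 0.44 and 0.38 to the mean profile.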

How the data were processed

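RNA was measured as gene-level reads in 8 libraries of J1 cells. Per the submitters' processing notes, cutadapt, HISAT2, featureCounts and DESeq2 were used with build mm10. Versions and counting strand are not given in the sources used here. The authors deposited normalised signal per gene and library. With 1 factor per library, 100% of the values gave a whole number of reads (tolerance 0.01), so reads were recovered. The plan named edgeR for counts and limma-trend for normalised values, and limma-trend was used because the values are normalised.

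Values were taken as log2(value + 1) and fitted with limma 3.58.1 (trend) in R 4.3.3, 2 against 2 libraries per arm, two-sided, over 17938 and 18292 genes. All genes were tested, since low genes were already absent (lowest sum of reads 19). The difference between arms was fitted over 8 libraries. limma-voom, edgeR 4.0.16 (quasi-likelihood, 6483 and 8185 genes called) and DESeq2 1.42.0 on recovered reads, other scalings, pseudocounts and filters, left-out libraries, and a replicate block were alternatives. Libraries of a group differed by more than counting noise (chi-square per degree of freedom 2.94 to 4.96). The fits were also run on simulated data, with the same spread for all genes and no planted changes in genes with few reads. That run cannot show how the fits do for such genes.

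Symbols came from GENCODE M21 (17913 and 18259 genes matched), as did coordinates and exon lengths, and promoters from RefSeq. The 10 genes and all lists were chosen with earlier results of these data known. Columns were matched to libraries by replicate number in the titles. From each list, up to 4 called genes with the largest change per arm are named, and others where stated. Some genes that this rule selects are not reported here. Names like Zscan4 cover near-identical copies whose reads can be shared, and overlapping genes are uncertain without strand.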

Additional observations from a re-analysis of the deposited data

Results flagged for a closer look

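The effect, the Zscan4 group against its own control, differed between the arms for all 10 genes in the fit of both arms. The OE effect minus the KD effect, on the log2 scale, was 4.71 for Foxq1, 4.48 for Cubn, 3.83 for Srgn, 3.58 for Sox17, 3.34 for Gata6, 3.10 for Pdgfra, 2.83 for Gata4, 1.97 for Lrp2, 1.498 for Dab2 and -1.25 for Hnf4a. For Cubn it was 5.19 without KD Zscan4 replicate 1 and 3.77 without KD Zscan4 replicate 2. For 8 of the 9 positive values both estimates were below 0 and the KD effect was the larger in size. Of these, the OE effects of Foxq1 (-0.04) and Sox17 (-0.85) did not pass. For Lrp2 the effects had opposite signs. The 2 arms differ in vector, drug and days of selection as well as in the direction of the Zscan4 change, and these cannot be told apart. Cells of every group were picked as single clones, so differences between clones cannot be told apart from them either.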

How the results depend on the processing

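Of 510 recomputed values of single genes, 490 kept their direction and their side of the threshold, among them all 160 of the knockdown. In the overexpression 10 calls were lost, 3 were gained and 2 values changed sign: Foxq1 stood at 0.07 without OE control replicate 1 and at 0.16 without OE Zscan4 replicate 2, and ranged from -0.24 to 0.16 with 1 library left out. In the difference between arms 5 calls were lost, all of Hnf4a. The number of the 10 genes called in the overexpression was 5 with DESeq2 and 5 to 8 when 1 library was left out. DESeq2 called 4141 genes of the whole knockdown table, against 6403. With 1 library left out, a lone library is assumed to vary like the others; 4416 to 6087 genes were then called in the knockdown and 5964 to 7975 in the overexpression. Replicate numbers did not pair the libraries (correlation of deviations -0.06 and -0.04). With a replicate block 9 of the 10 genes were called in the knockdown, 9 in the overexpression, with Sox17 gained at -0.85, and 10 in the difference, and 6924 and 8188 of all genes. The values with the fewest reads (3 to 17 for Srgn, Sox17, Foxq1 and Cubn in KD Zscan4) are limited by depth. So are those of Pdgfra (20 and 15 reads) and Gata6 (25 and 17 reads) in KD Zscan4. This bears on the size of the falls of these genes.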
